A study of Populus tremula x Populus tremuloides with 6 samples.

Results

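In leaves of hybrid poplar that overexpress the transcription factor MYB117, 130 genes that wild-type leaves already transcribe at a moderate level were raised 4- to 16-fold. They are the 130 of 37662 loci in the count tables that carry a gene identifier starting with Potra, had a mean of at least 10 CPM in wild type, had a mean in the MYB117 plants at least 4 and less than 16 times as high, and had no overlap between the groups. CPM is the number of reads of a locus for each 1000000 reads in loci of its library. Of the 34267 loci with such an identifier, 12818 reached 10 CPM in wild type, so the members are 1.01% of the loci that could be chosen. The measured levels of both groups chose them, so their folds are a description and carry no test.

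Both groups were Populus tremula x Populus tremuloides trees, 3 wild-type plants and 3 transgenic plants, and 1 leaf library was sequenced from each. The labels name clone INRA 353-38 as the plant that was transformed. Its excised leaves received MYB117 in the binary vector pMDC32 through Agrobacterium tumefaciens strain GV3101::pMP90. In pMDC32 the inserted gene stands behind a constitutive 35S promoter of cauliflower mosaic virus, so cells beyond those that normally use MYB117 can make it. After tissue culture every tree, wild type included, was kept in a mist chamber for 1 month and in a greenhouse for a further 2 months, and its leaves numbered 7 to 10 were harvested. The labels leave unsaid whether the transgenic plants descend from separate transformation events. As replicates are told apart by a number alone, p-values measure the spread between these 6 libraries.

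MYB proteins of plants bind DNA through repeats of a helix-turn-helix fold, and many of them act together with bHLH and WD-repeat partners. Members of the family switch on blocks of the phenylpropanoid and flavonoid pathways, which make lignin, flavonols, tannins and the red anthocyanins. MYB117 of poplar is known as an activator of anthocyanin synthesis. The count tables hold no gene or product names beside the identifiers, so the functions of the members, the level of MYB117 itself and markers of leaf cell types were not analysed here. The transgenic labels are thus unchecked, and the members are described by level, by library and by place in the locus order. In whole leaves, more transcript in a cell and more cells of a type cannot be told apart.

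Reads in loci numbered 28960403 to 38013856 in the wild-type libraries and 35164729 to 49442174 in the MYB117 libraries, with the fewest in wild-type replicate 1. A level of 10 CPM stands for 290 reads in that library. In plain CPM wild-type replicate 1 was shifted: the median locus at 10 CPM or more had 0.846 times the mean CPM of replicates 2 and 3 in it. Of such loci, 59.1% were lowest there within wild type. With TMM scaling the ratio was 1.01 and the share 38.7%. MYB117 replicate 1 had a like shift in plain CPM, with a ratio of 0.875 and 61.2% of loci lowest in its group. The main counts and folds of the members are also given without wild-type replicate 1.

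Members spanned a wide range of levels. Their wild-type means ran from 10.02 to 386 CPM with a median of 30.8, and their MYB117 means from 46.3 to 1883 CPM with a median of 213. The median member ranked 6274 by level among all loci in wild type and 639.5 in the MYB117 plants. In wild type 7 members were among the 1000 most abundant loci, and in the MYB117 plants 81 were. At least 100 CPM was reached by 15 members in wild type and by 100 in the MYB117 plants, and at least 1000 CPM by 0 and 5.

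**Figure D1:**
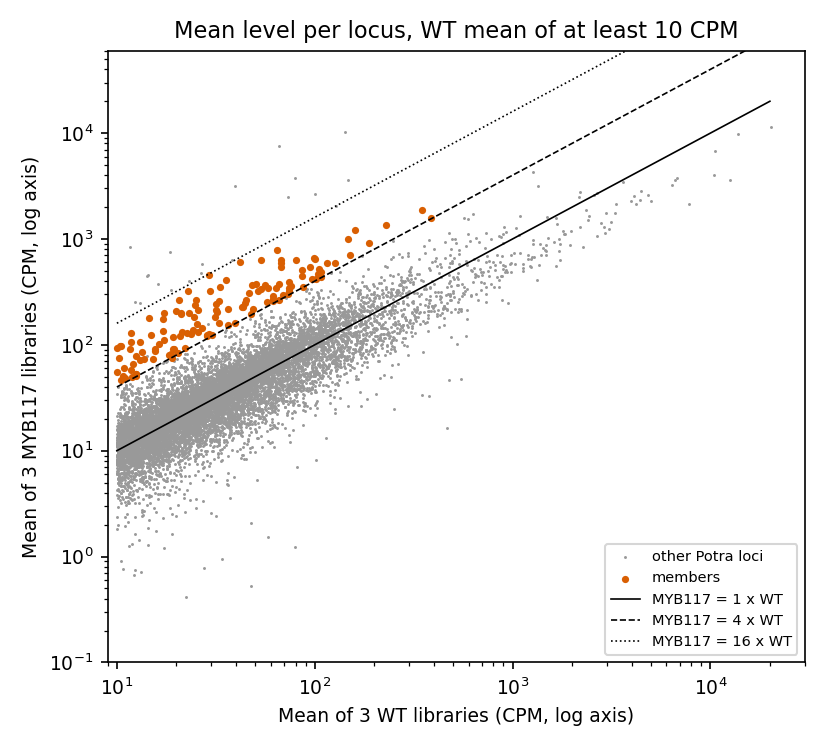
Mean level of each of the 12818 Potra loci with a wild-type mean of at least 10 CPM, in wild type (horizontal) and in the MYB117 plants (vertical), both in CPM on log axes. The 130 members, in orange, fill the band between the lines at 4 and 16 times the wild-type mean, at wild-type means from 10.02 to 386 CPM.

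Folds crowded towards the lower limit. The median fold was 5.72, with quartiles at 4.59 and 7.74, and 74 members lay between 4 and 6, 28 between 6 and 8, 22 between 8 and 12, and 6 at 12 or more. The largest was 15.5. Without wild-type replicate 1 the median fold of the same 130 members was 4.78. Over all 12818 loci at 10 CPM or more the median fold was 1.02. Folds were slightly smaller at the highest wild-type levels, without a steady fall. By wild-type level, the median fold was 5.77 for 40 members at 10 to 20 CPM and 5.98 for 45 at 20 to 50. It was 5.58 for 30 members at 50 to 100 CPM and 4.88 for the 15 at 100 CPM or more. Across the 130 members, the correlation of log2 wild-type mean and log2 fold was weak (Pearson's r = -0.21, Spearman's rho = -0.19). The wild-type mean is a part of both quantities. The members made up between 0.895% and 1.38% of the loci in each of 4 classes of wild-type level, from 10 to 20 CPM up to 100 CPM and more.

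Summed over the members, the share of a library's reads in loci was 0.469%, 0.694% and 0.800% in wild-type replicates 1, 2 and 3. It was 4.18%, 3.93% and 3.58% in the MYB117 replicates of the same numbers. These shares follow from the choice of the members. In wild type the lowest share was that of replicate 1 and in the MYB117 plants that of replicate 3. The gain was spread over many genes. It took 26 of the 130 members to reach 50% of the summed gain in CPM, and the 8 members with the highest MYB117 means held 24.0% of it.

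**Figure D2:**
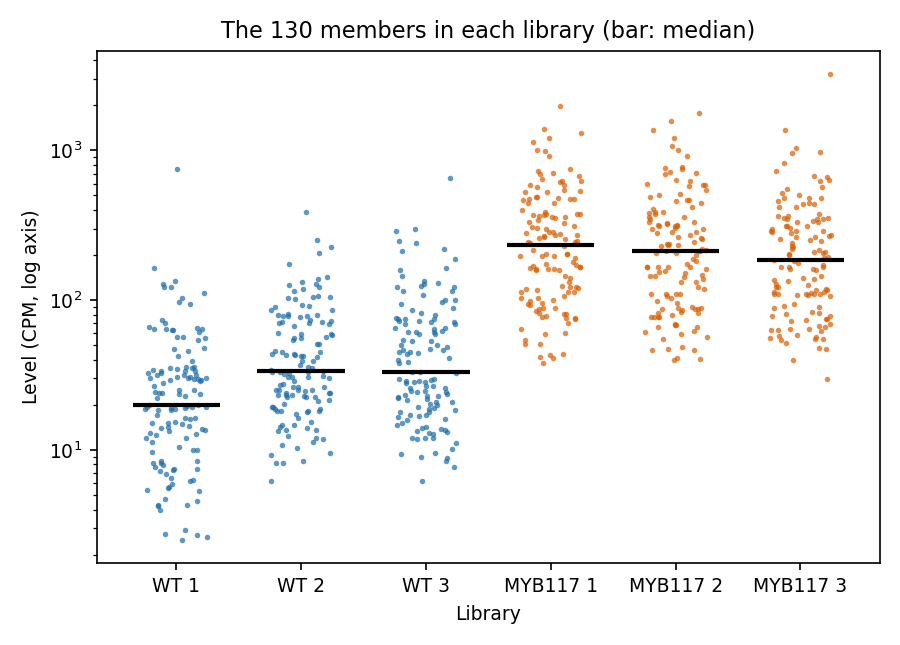
Level of each of the 130 members in each library, in CPM on a log axis, with wild type in blue, MYB117 in orange and the median as a bar. The medians were 19.98, 33.4 and 33.3 CPM for the wild types, from replicate 1 to 3, and 235, 214 and 184 CPM for the MYB117 plants.

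The member with the highest MYB117 mean was Potra000519g03462. It had 747, 174 and 128 CPM in the wild types, from replicate 1 to 3, and 1212, 1202 and 3233 CPM in the MYB117 plants, an order kept in all triplets below. The wild-type mean was 350 ± 345 CPM and the MYB117 mean 1883 ± 1170 CPM (SD, n = 3 each), a fold of 5.38. Wild-type replicate 1 was far above the other wild types and MYB117 replicate 3 far above the other MYB117 plants, and the groups did not overlap. Its fitted log2 fold change in edgeR was 2.22 (SE 0.84), and it was 3.62 (SE 0.56) without wild-type replicate 1 and 1.63 (SE 0.87) without MYB117 replicate 3.

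The member with the highest wild-type mean was Potra007760g26019. It had 111, 389 and 658 CPM in the wild types and 1970, 1770 and 958 CPM in the MYB117 plants. The wild-type mean was 386 ± 274 CPM and the MYB117 mean 1566 ± 536 CPM (SD, n = 3 each), a fold of 4.06. Here wild-type replicate 1 was the lowest wild type, the opposite of its place at Potra000519g03462. The lowest MYB117 library was 1.46 times the highest wild type. Its fitted log2 fold change in edgeR was 1.99 (SE 0.62), and leaving out 1 library gave 1.57 to 2.62, the lowest without wild-type replicate 1 and the highest without wild-type replicate 3.

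At ranks 3, 5 and 7 the MYB117 libraries lay close together. The member at rank 3 by MYB117 mean had 165, 225 and 297 CPM in wild type and 1380, 1371 and 1359 CPM in the MYB117 libraries, the narrowest MYB117 range of all 130. Rank 5 had 70.3, 207 and 163 CPM in wild type and 989, 1001 and 1030 CPM in the MYB117 libraries. Rank 7 had 64.9, 78.2 and 50.1 CPM in wild type and 752, 774 and 829 CPM in the MYB117 libraries, a fold of 12.2. In these 3 genes the MYB117 plants lay within 1.02 to 1.10 times of each other, while the wild types ranged over 1.56 to 2.94 times.

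At ranks 4, 6 and 8 the MYB117 libraries ranged over 1.45 to 2.17 times. Rank 4 had 48.3, 138 and 291 CPM in wild type and 1314, 1578 and 726 CPM in the MYB117 libraries. Rank 6 had 63.2, 254 and 248 CPM and 731, 1061 and 968 CPM, and rank 8 had 123, 143 and 187 CPM and 914, 639 and 567 CPM. In each of the 3 the lowest wild type was replicate 1.

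**Figure D3:**
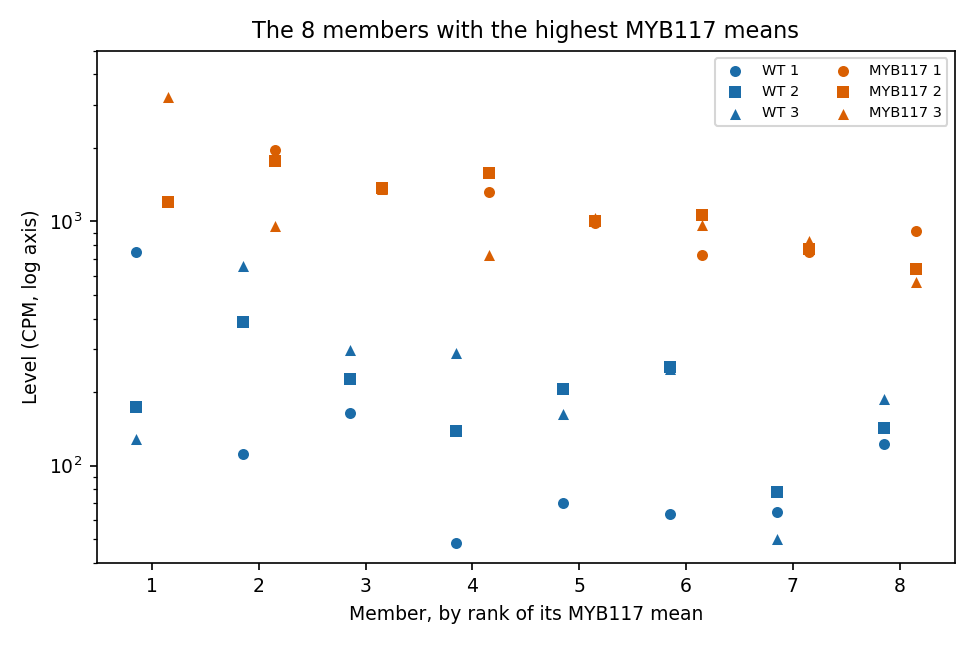
Level of the 8 members with the highest MYB117 means in each of the 6 libraries, in CPM on a log axis, wild type in blue and MYB117 in orange, with a symbol for each replicate number. Ranks 3, 5 and 7 show MYB117 points that nearly coincide, and ranks 1 and 2 show wild-type points spread over 5.82 and 5.91 times.

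The 6 members with a fold of at least 12 had wild-type means of 14.5 to 64.4 CPM and MYB117 means of 181 to 785 CPM. The largest fold of the 130 belonged to a member at 30.3, 31.1 and 26.5 CPM in wild type and 401, 463 and 503 CPM in the MYB117 plants (15.5-fold). It also had the widest gap, its lowest MYB117 library lying 12.9 times above its highest wild type. A second member, at 25.2, 60.1 and 40.8 CPM in wild type and 1010, 405 and 420 CPM in the MYB117 plants, was 14.5-fold higher. At the other end, the smallest fold, 4.005, went from 18.9 ± 4.54 to 75.7 ± 18.4 CPM (SD, n = 3 each).

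Loci just inside and just outside the limit of 10 CPM had like values, while those at the fold limits differed in level. Just inside 4-fold, a member went from 18.9 ± 4.54 to 75.7 ± 18.4 CPM. Just inside 16-fold, another went from 29.3 ± 2.45 to 456 ± 51.2 CPM. The locus nearest below a fold of 4 with no overlap went from 173 ± 58.0 to 692 ± 110 CPM (3.99-fold), and the locus nearest above 16 went from 128 ± 45.3 to 2066 ± 828 CPM (16.2-fold). The member with the lowest wild-type mean went from 10.02 ± 3.70 to 55.9 ± 22.1 CPM, and the nearest locus below 10 CPM from 9.94 ± 3.83 to 52.9 ± 13.3 CPM (SD, n = 3 each). In the band from 4- to 16-fold, 3 loci at 10 CPM or more overlapped between the groups and are no members. Another 500 loci at that level rose 2- to 4-fold and 20 rose 16-fold or more, both without overlap.

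The distance between the groups varied widely. The lowest MYB117 library was at least 2 times the highest wild type at 114 members, at least 3 times at 70 and at least 4 times at 41, with a median of 3.12 times. Without wild-type replicate 1 the numbers were 115, 75 and 44, and the median was 3.36 times. The smallest gap, 1.02 times, belonged to a member at 23.0, 54.1 and 32.4 CPM in wild type and 477, 123 and 55.1 CPM in the MYB117 plants, where MYB117 replicate 1 was far above the others and replicate 3 barely above wild type. Of all 12818 loci at 10 CPM or more, 21.7% had every MYB117 library above every wild type. The rule demands this of each member, so nothing is read from it for them.

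Of the 130 members, 114 (87.7%) were called higher by edgeR's quasi-likelihood test at an adjusted p below 0.05, against 9.94% of the 26854 loci tested and 6.96% of the 12818 loci at 10 CPM or more. The rule used the same contrast, so this count is no support for the members. The 16 members not called had a median fold of 5.30, against 5.84 for those called, but their wild types ranged over a median of 7.23 times against 2.09. Both members printed above by identifier, the most abundant in each group, were among the 16. Potra000519g03462 was called by DESeq2 and by edgeR without wild-type replicate 1, and Potra007760g26019 by DESeq2 and by edgeR without wild-type replicate 3. The count was 118 without wild-type replicate 1, against 10.4% of all loci tested. It was 110 with the replicate numbers as a block, against 9.57%.

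Wild-type plants differed from each other at the members. The highest wild type was at least 2 times the lowest at 77 members (59.2%), against 22.8% of all loci at 10 CPM or more, and at least 3 times at 40 (30.8%), against 9.54%. Among the MYB117 plants a 2-fold range was seen at 30 members (23.1%), against 12.4% of all such loci. The widest wild-type range, 24.1 times, was that of a member with 2.69, 50.7 and 65.03 CPM in wild type and 106, 213 and 158 CPM in the MYB117 plants. At 19 members the wild types differed by more than the fold between the groups, and 14 of the 19 were among the 16 not called. The narrowest wild-type range, 1.08 times, was that of a member with 122, 131 and 125 CPM in wild type and 590, 694 and 483 CPM in the MYB117 plants. Both groups ranged over less than 1.5 times at 18 members. Between wild-type replicates 2 and 3 alone, a 2-fold range was seen at 20 members (15.4%, against 4.70% of all loci at 10 CPM or more), a 3-fold range at 6 (4.62%, against 1.33%) and a range above the fold at 5.

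Most of the wild-type spread lay in replicate 1. That library was the lowest wild type at 98 of the 130 members (75.4%), against 59.1% of all loci at 10 CPM or more. It had less than 0.5 times the mean of replicates 2 and 3 at 56 members (43.1%), against 11.9% of those loci. With TMM scaling, which evens out the general shift of that library, the numbers were 84 members lowest (64.6%, against 38.7%) and 43 below 0.5 times (33.1%, against 7.997%). Wild-type replicate 3 was more than 2 times the mean of the other two at 26 of the 130 members, against 4.47% of all such loci. A low value in 1 wild-type library lowers the wild-type mean, which the rule used, so these shares are not independent of the choice, and what sets the wild-type plants apart was not tested.

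**Figure D4:**
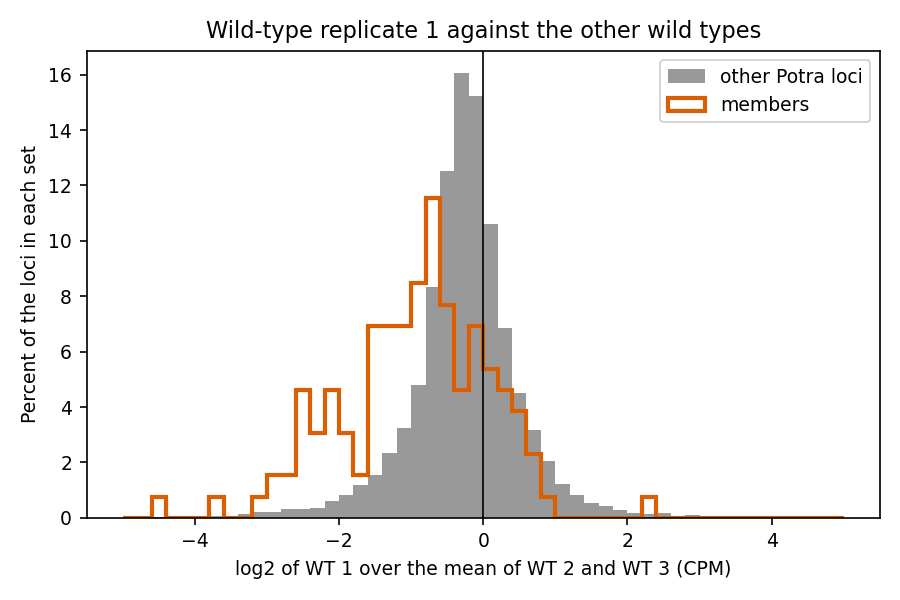
Distribution of the log2 ratio of wild-type replicate 1 to the mean of wild-type replicates 2 and 3 (horizontal), as the percent of loci in each set (vertical), for the members in orange and the other Potra loci at 10 CPM or more in grey. The members lie further to the left: the median ratio, on the linear scale, was 0.558 for them and 0.846 for all loci at 10 CPM or more.

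The MYB117 plants differed less and in another library. MYB117 replicate 3 was below 0.5 times the mean of the other two at 17 members (13.1%), against 2.18% of all loci at 10 CPM or more, and MYB117 replicate 1 was above 2 times at 14 (10.8%), against 3.08%. MYB117 replicate 1 was the lowest of its group at 61.2% of all loci at that level but at 52 of the 130 members, and MYB117 replicate 3 at 19.9% of all such loci and at 54 members (41.5%). The rule used the MYB117 mean and kept every MYB117 library above every wild type, which limits the spread of the MYB117 libraries. These shares are thus not independent of the choice, and their cause was not tested. Deviations of libraries from their group mean were correlated across loci for the 9 pairs of a wild type and a MYB117 plant (log2 CPM with 0.5 added). For the replicates numbered 1, Pearson's r was 0.50 over the 12818 loci and -0.05 over the 130 members (Spearman's rho 0.45 and -0.04). For wild-type replicate 3 and MYB117 replicate 2 it was 0.57 and 0.34 (rho 0.44 and 0.31), and for wild-type replicate 1 and MYB117 replicate 2 it was -0.57 and -0.28 (rho -0.45 and -0.27). For wild-type replicate 1 and MYB117 replicate 3 it was -0.21 and 0.26 (rho -0.23 and 0.21). For wild-type replicate 3 and MYB117 replicate 3 it was 0.13 and -0.27 (rho 0.21 and -0.21). In these last pairs the sign differed between all loci and members. In the pairs not yet named, r was -0.45 to 0.23 over the 12818 loci and -0.05 to 0.07 over the members. Loci share these libraries, so the values are descriptions.

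Chosen genes were also looked up in a library that had no part in choosing them. The same rule was applied to 5 libraries at a time, and the chosen loci were read in the sixth. The other group's libraries, against which the sixth was set, did take part in the choice. Loci low in the wild types used or high in the MYB117 libraries used were favoured by it, and the loci given for comparison were not. High shares and folds are thus partly built in and are descriptions. With MYB117 replicate 1 left out, 126 loci were chosen and 126 (100%) were above every wild type in it, against 27.7% of all loci at 10 CPM or more. With MYB117 replicate 2 left out the count was 127 of 127, against 38.1%, and with MYB117 replicate 3 left out 126 of 132 (95.5%), against 38.9%. Median folds of the left-out libraries over the wild-type mean were 5.84, 5.71 and 4.99 in this order, where the libraries that chose the loci gave 5.52, 5.98 and 6.03. Over all loci at that level the left-out medians were 0.949 to 1.05.

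Wild-type libraries gave a wider spread. With wild-type replicate 1 left out, 109 of 110 chosen loci were below every MYB117 library in it, against 50.2% of all loci at 10 CPM or more in the wild-type libraries used. The counts were 131 of 133 for wild-type replicate 2, against 33.1%, and 136 of 143 for wild-type replicate 3, against 37.9%. The median fold of the MYB117 mean over the left-out wild type was 9.96 for replicate 1, 4.87 for replicate 2 and 4.61 for replicate 3. The other libraries had given 5.41, 5.45 and 5.96. Over all such loci the left-out medians were 1.18, 0.981 and 1.04. With TMM scaling the medians were 8.32, 5.59 and 4.55 for the chosen loci and 0.983, 1.01 and 0.998 for all such loci. A fold of at least 4 was kept by 99 of 110, 83 of 133 and 83 of 143 loci, against 4.43%, 1.19% and 1.29% of all such loci. In the left-out MYB117 libraries it was kept by 95 of 126, 103 of 127 and 97 of 132 loci, against 1.28%, 1.16% and 1.10%. Over all 6 left-out libraries, 97.9% of 771 choices kept their side, against 37.7% of all such loci. The 6 choices share libraries and most loci, so they are not 6 separate samples.

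**Figure D5:**
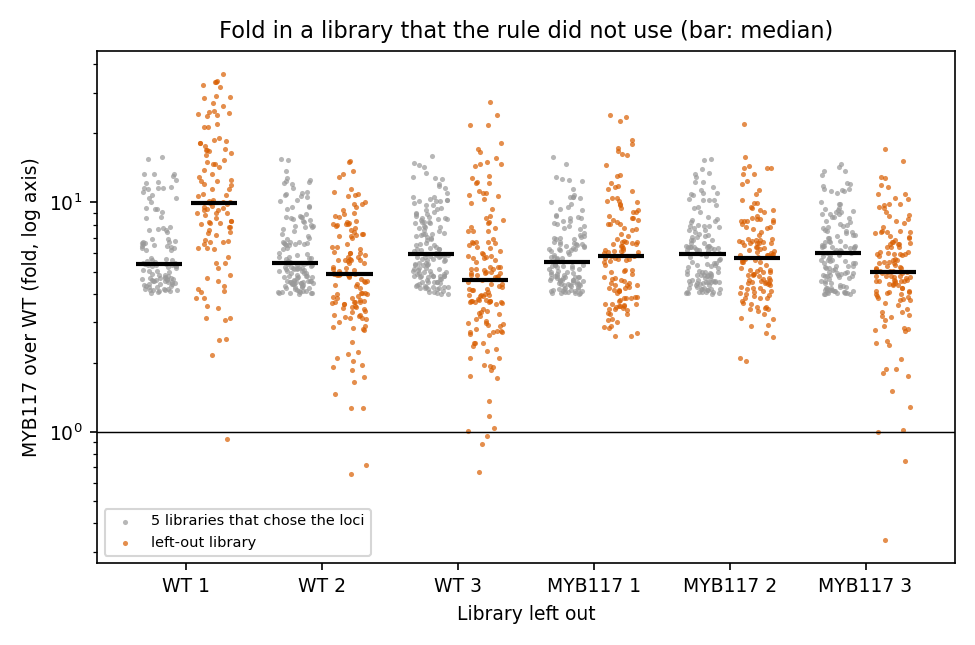
Fold of MYB117 over wild type, on a log axis, for loci chosen by the rule without the library named on the horizontal axis. Grey points are folds in the 5 libraries that chose the loci, orange points use the left-out library as the MYB117 or wild-type value, and bars are medians. The other group's value in an orange point comes from libraries that chose the loci. The orange median lies highest for wild-type replicate 1, at 9.96, and between 4.61 and 5.84 for the other 5 libraries.

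Which genes count as members depended on the libraries. Without wild-type replicate 1 the rule gave 110 loci, of which 93 were among the 130. Without wild-type replicate 2 or 3 it gave 133 and 143, with 110 and 115 shared. Without 1 of the MYB117 libraries it gave 126 to 132, with 114 to 122 shared. Without both libraries numbered 1 it gave 104, with 83 shared, and their median fold was 5.33.

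Most members were the only one on their scaffold. The digits before the letter g of a Potra identifier stand for a scaffold, and the locus numbers of the files follow these digits. The 130 members had 130 distinct identifiers on 126 of the 4843 scaffolds with a locus at 10 CPM or more, and 4 scaffolds held 2 members each. Of the 4 pairs, 3 had consecutive locus numbers, and another 2 pairs of members had consecutive locus numbers with different scaffold digits. No coordinates are printed, as no source used here gives the build, and reads shared between near-identical neighbours cannot be told apart.

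The 2 pairs with different scaffold digits ran closely alike. In one, the members had 18.6, 118 and 146 CPM and 19.3, 106 and 135 CPM in the wild types and 390, 594 and 634 CPM and 376, 591 and 552 CPM in the MYB117 plants, with folds of 5.72 and 5.85. In the other, wild-type levels were 33.7, 42.04 and 85.5 CPM and 29.9, 43.9 and 81.9 CPM, and the folds were 6.30 and 6.17. In 1 pair on the same scaffold the members had 48.3, 138 and 291 CPM and 2.94, 13.4 and 19.1 CPM in the wild types. Their MYB117 levels were 1314, 1578 and 726 CPM and 98.8, 167 and 54.1 CPM. The replicates of each group stood in the same order in both members, and the folds were 7.58 and 9.03. In another such pair one member had 32.5, 70.1 and 214 CPM in wild type and 640, 707 and 220 CPM in the MYB117 plants, and its neighbour 64.2, 78.0 and 61.3 CPM and 614, 627 and 668 CPM. There wild-type replicate 3 nearly reached the lowest MYB117 library in the first member and was the lowest wild type in the second. In the remaining 2 pairs the folds were 6.45 and 4.26, and 9.58 and 4.32.

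Loci beside the members were also read. Of the 248 loci 1 number below or above a member that are no members, 174 were tested, and 20 were higher and 9 lower (11.5% and 5.17%, edgeR's quasi-likelihood test, adjusted p below 0.05). Over all loci tested, 9.94% were higher and 7.19% lower, and the median log2 fold change was -0.06 in both sets. Leaving out members takes raised neighbours away by the rule: 10 members lie beside another member, and 9 of them were called higher. With them the count was 29 of 184 (15.8%), a share that the rule raises, so neither share is read as a result about the members' surroundings. Counting only neighbours on the same scaffold, 10 of 107 were higher (9.35%), and by gene number on the same scaffold 8 of 109 (7.34%). Without wild-type replicate 2, 12 of 177 were higher (6.78%, against 5.79% of all loci). Without MYB117 replicate 1, 2 and 3 the counts were 13 of 178, 11 of 177 and 12 of 177 (6.21% to 7.30%). There 4.53% to 5.84% of all loci were higher. Without wild-type replicate 3 it was 14 of 180 (7.78%, against 8.66%), and without wild-type replicate 1 it was 23 of 179 (12.8%, against 10.4%). With DESeq2 it was 29 of 174 (16.7%, against 14.6%) and with limma voom 24 of 174 (13.8%, against 10.7%).

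Of the 20 neighbours called higher, 17 were below 50 CPM in the MYB117 plants, as were 84.7% of all tested loci and 76.0% of those called higher. The locus beside rank 7 was at 1.95 ± 0.95 CPM in wild type and at 14.7 ± 2.86 CPM in the MYB117 plants, with a log2 fold change of 2.84 and an adjusted p of 0.0054 in edgeR. That beside rank 11 was at 5.98 ± 1.62 and 47.4 ± 5.63 CPM, with a log2 fold change of 2.92 and an adjusted p of 0.00066 in edgeR. Beside rank 5 a locus fell from 13.04 ± 3.87 to 6.21 ± 0.55 CPM, with a log2 fold change of -1.15 and an adjusted p of 0.023 in edgeR. Among the 17 neighbours to which the files give no Potra identifier, 15 were tested and 3 were higher, against 15.8% of all tested loci labelled NA. The largest level of the 3 went from 5.12 ± 1.53 to 39.3 ± 3.33 CPM (SD, n = 3 each), beside a member whose fold was 7.49. Identifiers of 2 members were carried by a second locus, at 0 reads in all libraries in one case and at most 0.106 CPM in the other, so nearly all reads under each identifier were those of the member.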

How the data were processed

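RNA of 6 trees was read as 1 library each. The samples are labelled as leaves, while the labels' extraction protocol names hairy roots or leaf powder. The tissue was taken from the sample label and not checked with markers. The deposited values are raw counts of reads for each locus, whole numbers without normalization, per the files' row names and values. Per the submitters' processing notes, the tools included HISAT2 2.1.0, HTSeq 0.6.1 and Cufflinks. Build, annotation, strand setting and counting options were not given in the sources used here, so near-identical copies and genes overlapping on opposite strands are uncertain. The last 5 rows hold reads given to no locus (27.0% to 29.6% of a library's reads) and were left out.

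CPM were computed from the counts as the rule states, without further scaling. The members and all lists were chosen with earlier results of these data known. All loci were fitted in edgeR 4.0.16 (R 4.3.3) by the quasi-likelihood F test, two-sided, with TMM scaling, the expression filter (minimum count 10, total 15), no covariate and Benjamini-Hochberg adjustment over 26854 loci, with 0.05 as threshold. An SE was computed as the absolute log2 fold change over the square root of F. Alternatives used DESeq2 1.42.0 and limma 3.58.1. The fewest reads of a member in a library were 73, with a counting error of 11.7%. The 2 identifiers printed are the members with the highest MYB117 mean and the highest wild-type mean, by a fixed rule. Sequences and gene names were not analysed here.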

Additional observations from a re-analysis of the deposited data

How the results depend on the processing

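Among the alternatives run, the number of members moved most with the floor. The limits of 4- and 16-fold were not varied. The number of members, 130, was 206 with a wild-type mean of at least 5 CPM and 90 with 20 CPM. It was 116 with TMM scaling or DESeq2 size factors and 110 to 143 with 1 library left out. With the median of 3 libraries in place of the mean it was 127, of which 105 were among the 130. Members held 3.90% of MYB117 reads, 3.59% with TMM scaling, 3.51% without both libraries numbered 1 (an alternative chosen after seeing the data) and 3.31% to 4.29% with 1 library left out; the cause was not tested. The median fold, 5.72, was 5.33 to 6.03 in the alternatives run. Each alternative chose its loci anew within the 4- to 16-fold band, which limits how far the median can move. For the same 130 members it was 4.78 without wild-type replicate 1. Members called higher by edgeR numbered 114, where 9.94% of all loci tested were higher. With 1 library left out they numbered 89 to 118, where 4.53% to 10.4% of all loci were higher. The number was 110 with the replicate block (9.57% of all loci), 129 with DESeq2 (14.6%) and 120 with limma voom (10.7%). Replicate numbers were not treated as pairs in the main fit. Deviations of same-numbered libraries correlated at 0.37, 0.18 and 0.04 over 26854 loci, under the limit of 0.1 for the third pair. Wild-type replicate 3 correlated best with MYB117 replicate 2 (0.39). Deviations within a group depend on each other, so these values do not decide whether equal numbers mark pairs. Of the loci beside members, 20 were higher, 18 with the replicate block and 11 to 23 with 1 library left out. The number was 29 with DESeq2 (where 14.6% of all loci were higher) and 24 with limma voom (10.7%). It was 35 of the 339 tested within 2 numbers on each side and 3 without a Potra identifier. By gene number it was 8, and 29 with members beside members counted, these 2 chosen after seeing the data. The last 4 counts cover other sets of loci. Choices that kept their side in a left-out library were 97.9%, against 37.7% of all loci at 10 CPM or more, and 97.6% with TMM scaling. The other group's libraries took part in the choice, so these shares are partly built in. The second loci under a member's identifier were called in 0 fits: none passed the count filter, and with no filter 1 was tested by edgeR.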

Other observations

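At 3 loci at 10 CPM or more the fold lay in the band but the loci missed membership because the groups overlapped. They went from 14.2 ± 15.2 to 79.0 ± 46.1 CPM, from 28.8 ± 19.0 to 157 ± 135 CPM and from 10.9 ± 9.13 to 47.4 ± 46.4 CPM (SD, n = 3 each). In each the SD of both groups was at least 0.5 times the mean, and the lowest MYB117 library stood at 25.8, 21.6 and 3.70 CPM against highest wild types of 31.5, 49.2 and 18.0 CPM.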
